A study of Mus musculus with 3 samples.

Results

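Genes of the heat shock response whose products work outside the endoplasmic reticulum, 10 in all, were followed in mouse T lineage cells and stromal cells given phospho-ascorbate (pAsc), a phosphorylated form of vitamin C. They were taken by gene name: every probe that is not a control spot and is named for Hspb1, Hspb8, Hspa1a, Hspa1b, Hspa8, Hsph1, Dnajb1, Hsp90aa1, Hspd1 or Hspe1. These 10 genes had 15 of the 41174 probes and stood among 27729 genes. For 5 of them there was 1 probe and for 5 there were 2, and each probe was printed on 1 spot of each array.

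The 3 comparisons each used 1 array of 2 colours, with RNA of treated cells in Cy5 and RNA of untreated cells in Cy3. T lineage cells treated for 24 h, at the end of a 14-day culture, were set against untreated cells of the same day, and cells treated for 72 h, at the end of a 17-day culture, against untreated cells of day 17. These cells came from bone marrow progenitors of C57BL/6 mice, grown with Flt3L and IL7 on OP9-DL1 stroma, a line that carries the Notch ligand Dll1. The third array set OP9-DL1 cells given pAsc for 24 h against untreated OP9-DL1 cells, which the labels call osteoblast and strain B6-C3Hf1 and which were kept in continuous culture. The dose was 800 µM throughout. Treated and untreated T cells alike had grown on stroma, which was removed by adherence before the RNA was taken.

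Each comparison rests on a single array with the dyes one way round. No value here has a p-value. Treated RNA was in Cy5 on all 3 arrays, so for any gene a dye effect of its probe and an effect of treatment cannot be told apart. Ratios are log2 of treated over untreated after background correction with an offset and loess normalization, and a second set of ratios, the log ratio deposited with the arrays, is called the Agilent ratio. Genes well above background in both channels counted as measured: 17001 in T cells at 24 h, 16315 in T cells at 72 h and 14348 in stromal cells. A gene was called where it was at least 2-fold apart. In that order of arrays the log2 SD was 0.069, 0.065 and 0.067 between spots that repeat a probe, and 0.14, 0.18 and 0.18 between the probes of a gene. These spreads hold no variation between cultures.

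Heat shock proteins are chaperones that bind unfolded protein. Small heat shock proteins hold it without using ATP, the HSP70 family folds it in cycles that J-domain proteins start and nucleotide exchange factors end, HSP90 finishes signalling clients such as kinases and steroid receptors, and HSP60 with HSP10 folds proteins inside mitochondria. The stress-inducible genes among them are switched on by heat shock factor 1 (HSF1), which binds inverted repeats of the 5 bases NGAAN in their promoters. Some members are made at high levels without stress, Hspa8 being the standard example.

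The promoters of these genes are shown first because the HSF1 repeat is what the inducible members are known to share. RefSeq windows of 250 bases upstream of the start (build GRCm38.p6) were matched for 8 of the 10 genes, in 11 windows. Hspa8 and Hsp90aa1 were not matched. They were searched on both strands for a pair of repeats, GAANNTTC or TTCNNGAA, each of which reads the same on both strands, and for 3 repeats in a row, TTCNNGAANNTTC or its reverse complement GAANNTTCNNGAA, each of which contains both pairs. A pair stood in 7 of the 11 windows, of 6 of the 8 genes (Hspb1, Hspa1a, Hspa1b, Hsph1, Hspd1 and Hspe1). The windows of Hsph1 overlap and hold the same match, so these 7 windows are not all separate DNA. Of all 32851 windows of this length, 12.8% held a pair. The run of 3 stood only in windows of Hspd1 and Hspe1 among these genes, and in 0.466% of all windows. No match was found in the windows of Hspb8 and Dnajb1. A window of Dnajb1 (chr8:83608298-83608547) lies downstream of the gene's other start, as does the matched window of Hspd1 (chr1:55087933-55088182). In the stretches below, of 80 bases each and written on the strand of the gene, capitals mark the matches.
Hspb1 (chr5:135887769-135887848, plus strand, bases 150 to 71 upstream): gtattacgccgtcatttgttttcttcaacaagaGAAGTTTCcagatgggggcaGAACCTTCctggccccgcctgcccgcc
Hspa1a (chr17:34972227-34972306, minus strand, bases 150 to 71 upstream): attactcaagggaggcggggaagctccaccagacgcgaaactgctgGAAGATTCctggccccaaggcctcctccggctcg
Hsph1 (chr5:149636357-149636436, minus strand, bases 100 to 21 upstream of the farther of its starts): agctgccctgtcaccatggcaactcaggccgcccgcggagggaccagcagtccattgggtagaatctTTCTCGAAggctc
Hspe1 (chr1:55088028-55088107, plus strand, bases 120 to 41 upstream): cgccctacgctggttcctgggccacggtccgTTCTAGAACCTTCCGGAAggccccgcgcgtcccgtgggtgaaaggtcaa

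Hspb1 had 2 separate pairs. The stretch of Hspa1a is the same, base for base, in Hspa1b, and the whole windows of these 2 neighbouring genes were identical at 247 of 250 bases. The run of 18 capitals of Hspe1 (chr1:55088059-55088076) is one and the same stretch of DNA as the match of Hspd1, read from the other strand, since these genes point away from each other and share their promoter region. A match is a description of letters and shows no binding.

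The small heat shock proteins gave the largest ratio of the 10 genes. Hspb1, the actin-protecting small heat shock protein called HSP25 in mice, was 2.61-fold higher in T cells after 24 h of pAsc, and Hspb8, the small heat shock protein that works with Bag3 in clearing damaged protein by autophagy, was 1.73-fold higher. At 72 h they were 1.54-fold and 1.33-fold higher. In stromal cells Hspb1 was 1.30-fold higher, and Hspb8 had a log2 ratio of 0.14.

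Hspb1 was measured by 1 probe, of 60 bases, whose ends lie 188 bases apart on the genome (mm9 chr5:136364927-136365114, plus strand), so that it spans an exon junction. It is shown because the largest value rests on it alone.
Hspb1 probe: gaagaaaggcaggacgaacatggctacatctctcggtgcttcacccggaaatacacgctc

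On the 24 h T cell array its mean signal was 2447 in treated Cy5 and 358 in untreated Cy3, before any correction for dye. On the log2 scale made comparable across arrays, its level was 10.52 in treated and 9.14 in untreated T cells at 24 h. It was 11.28 in treated and 10.66 in untreated T cells at 72 h, and 13.67 in treated and 13.29 in untreated stromal cells. The treated sample was thus the higher one of each pair, and both stromal samples lay above all 4 T cell samples. The log2 ratio of 1.38 in T cells at 24 h was the third highest of 17001 measured genes, and the Agilent ratio of 1.47, with an error of 0.24 given by the Agilent software, was the eleventh. At 72 h the log2 ratio was 0.62 (Agilent 0.67) and in stromal cells 0.38 (Agilent 0.46). With the alternatives tried, the 24 h value lay between 1.35 and 1.85.

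Hspb8 had a level of 9.77 in treated and 8.98 in untreated T cells at 24 h, of 10.72 and 10.31 at 72 h, and of 11.65 in treated and 11.51 in untreated stromal cells. Its order over the samples was that of Hspb1. The log2 ratios were 0.79, 0.41 and 0.14, and the Agilent ratios of 0.82, 0.41 and 0.13 lay within 0.03 of them. The stromal value was smaller than the SD between probes of a gene.

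**Figure D1:**
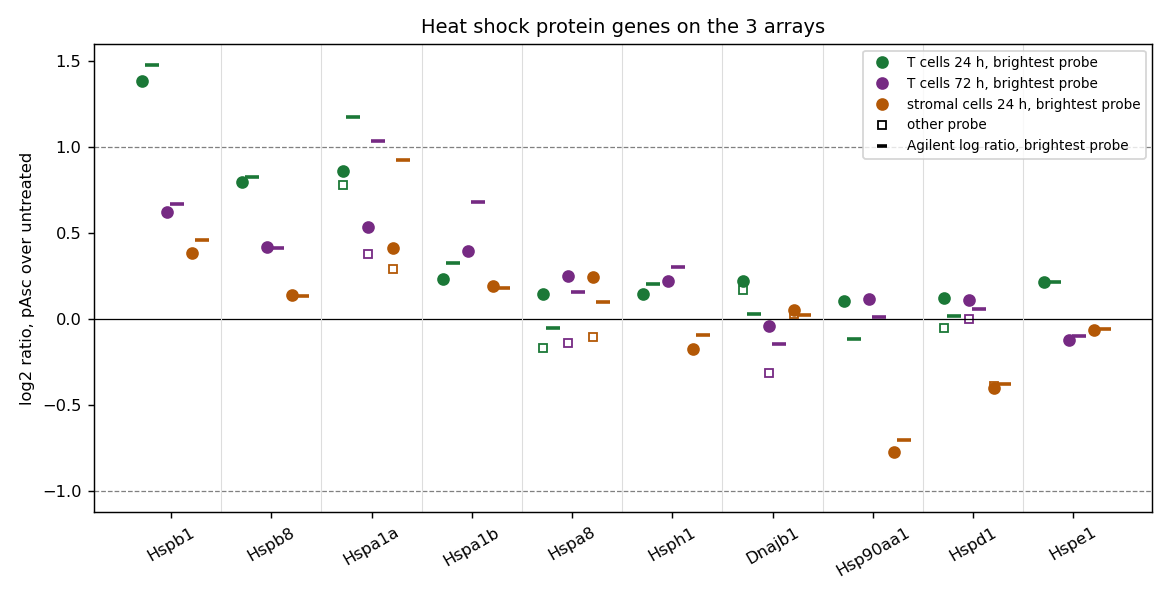
Log2 ratios of pAsc over untreated cells for each heat shock gene, on the T cell arrays at 24 h and 72 h and on the stromal array. Filled circles are the brightest probe, open squares the other measured probe and dashes the Agilent ratio of the brightest probe, and dashed lines mark 2-fold. Hspb1 at 24 h lies above 2-fold by both ratios, Hspa1a passes it on the T cell arrays only by the Agilent ratio, and Hsp90aa1 is lowest in stromal cells at -0.77.

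In the HSP70 group the inducible gene Hspa1a had a higher log2 ratio than the constitutive gene Hspa8 in T cells at 24 h, 0.86 against 0.14. The neighbouring gene Hspa1b was at 0.23 there. Hspa1a, the strongly heat-induced cytosolic HSP70, was 1.81-fold higher in treated T cells at 24 h, 1.45-fold at 72 h and 1.33-fold in treated stromal cells. By the Agilent ratio it was 2.25-fold, 2.04-fold and 1.90-fold higher. It was dim. The mean signals were 583 in treated Cy5 and 116 in untreated Cy3 at 24 h, 224 and 59.1 at 72 h, and 154 and 48.3 in stromal cells, where the local backgrounds were 58.5 in Cy5 and 27 in Cy3.

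The ratio of Hspa1a depended on how the background was handled. The log2 ratios of 0.86, 0.53 and 0.41 with the offset of 50 were 1.03, 0.85 and 0.81 with an offset of 0, and 1.17, 1.03 and 0.93 by the Agilent software. With median centring on measured genes in place of loess they were 0.74, 0.13 and -0.11, so the stromal direction turned. Genes of about the same brightness had median Agilent ratios of 0.01 at 24 h, 0.01 at 72 h and 0.10 in stromal cells, over 1017, 1192 and 1693 genes. The second probe gave 0.78, 0.38 and 0.29, or 0.95, 1.18 and 1.14 by the Agilent ratio. The probes overlap by 30 bases (mm9 chr17:35106796-35106825, minus strand), shown because the second probe is for that reason no independent target.
Shared bases of the Hspa1a probes: agggaaactaaactgtctttcagttacttt

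Hspb1, Hspb8, Hspa1a and Hspa1b were each higher in Cy5, which held the treated RNA, on all 3 arrays by both ratios. The level of Hspa1a was 8.42 in treated and 7.56 in untreated T cells at 24 h, 7.35 and 6.82 at 72 h, and 7.46 in treated and 7.04 in untreated stromal cells. Treated T cells at 24 h were the highest of the 6 samples, and the stromal samples were no higher than those T cells, unlike for Hspb1 and Hspb8.

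Hspa1b, the twin of Hspa1a on chromosome 17 with a nearly identical coding sequence, had log2 ratios of 0.23, 0.39 and 0.19, and Agilent ratios of 0.33, 0.68 and 0.18. Only 1 of its 2 probes was above background in both channels, on each array, and with centring on measured genes its 3 values were -0.14, -0.05 and -0.08. Its level was 7.03 in treated and 6.80 in untreated T cells at 24 h, 7.18 and 6.79 at 72 h, and 8.32 in treated and 8.13 in untreated stromal cells. The twins thus differed in which cells held more signal. RNA of one can bind probes of the other where they are alike, so their values are uncertain as values of single genes.

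Hspa8, the constitutive cytosolic HSP70, had levels from 15.50 to 15.77 over the 6 samples, a span of 1.21-fold. Its brightest probe had log2 ratios of 0.14, 0.25 and 0.24 and its other probe -0.17, -0.14 and -0.11, so that its probes lay on opposite sides of 0 on every array. The gap between them was 0.31, 0.39 and 0.35. The brightest probe was in the range where loess left a positive shift: above a mean log2 brightness of 15 the median ratio of all genes was 0.34 at 24 h, 0.19 at 72 h and 0.23 in stromal cells, against Agilent medians of 0.05, 0.01 and 0.02. No direction is given for Hspa8.

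Hsph1, the HSP110 protein that exchanges nucleotide on HSP70, had a level of 12.34 in treated and 12.20 in untreated T cells at 24 h, of 12.40 and 12.18 at 72 h, and of 12.28 in treated and 12.46 in untreated stromal cells. These 6 values spanned 1.21-fold, the log2 ratios were 0.14, 0.22 and -0.18, and centring turned the stromal value to 0.76 on all probes and 0.11 on measured genes. Dnajb1, the J-domain partner of inducible HSP70, had log2 ratios of 0.22, -0.04 and 0.05. Its other probe gave 0.16, -0.32 and 0.03. Neither gene was 1.5-fold apart on any array.

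**Figure D2:**
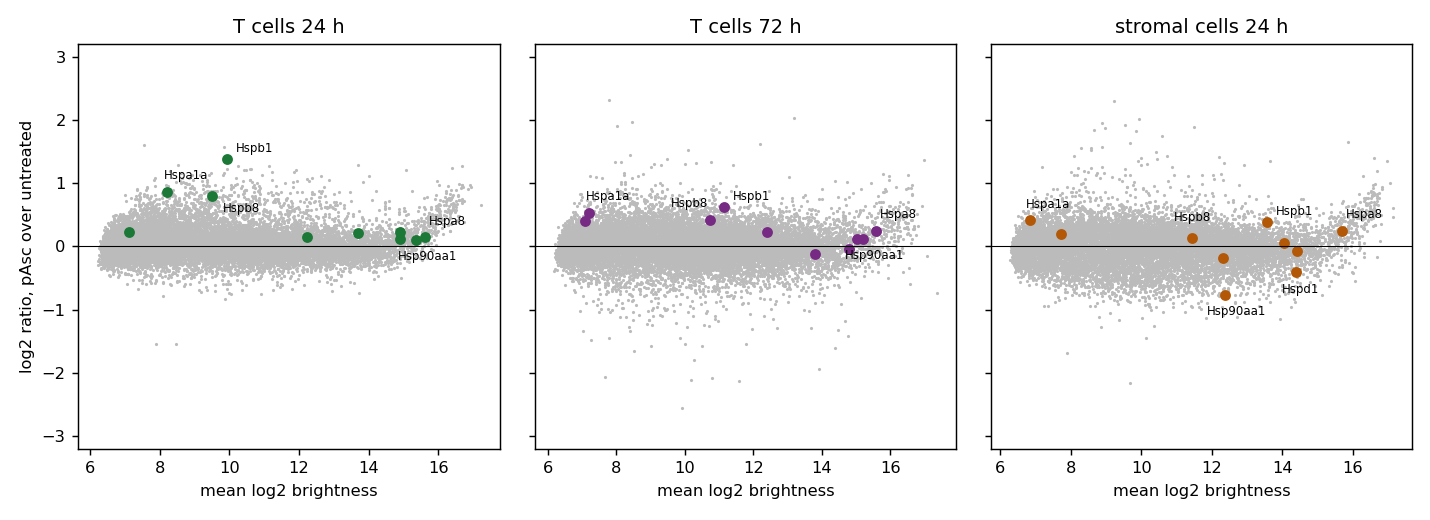
Log2 ratio of pAsc over untreated cells against mean log2 brightness for every measured gene (grey) and for the heat shock genes (coloured), one panel per array. Hspb1 at 24 h lies at the top of the cloud with a ratio of 1.38, Hsp90aa1 near its lower edge in stromal cells, and the cloud bends upward above a brightness of 15, where Hspa8 lies.

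Hsp90aa1, the inducible cytosolic HSP90, gave the lowest ratio of the 10 genes, and gave it in stromal cells. Its level was 12.03 in treated and 12.80 in untreated stromal cells, against 15.44 in treated and 15.34 in untreated T cells at 24 h and 15.27 and 15.16 at 72 h. Treated stromal cells were therefore lowest of the 6 samples, at 1.71-fold below untreated stromal cells. The log2 ratio of -0.77 was 98th from the lowest of 14348 genes, and the Agilent ratio of -0.71 was 539th from the lowest. It rests on 1 probe. With centring on measured genes it was -0.48, and with centring on all probes 0.17, where the median of all measured genes was 0.65. In T cells the log2 ratios of 0.10 and 0.11 were smaller than the SD between probes, and the Agilent ratios were -0.11 and 0.01.

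The mitochondrial chaperonin genes share a promoter region and had unlike ratios in stromal cells. Hspd1, which encodes HSP60, had a level of 14.11 in treated and 14.51 in untreated stromal cells. Its probes gave log2 ratios of -0.40 and -0.39, a level 1.32-fold lower by the brightest. Hspe1, which encodes HSP10, the lid of the same complex, had a level of 14.29 in treated and 14.36 in untreated stromal cells, and a log2 ratio of -0.07. Agilent ratios were -0.38 for Hspd1 and -0.06 for Hspe1. With centring, Hspd1 was at 0.76 on all probes and 0.11 on measured genes, and Hspe1 at 1.09 and 0.44, so that Hspd1 stayed the lower of the pair.

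In T cells Hspd1 had log2 ratios of 0.12 at 24 h and 0.11 at 72 h, with its other probe at -0.05 and -0.002. Hspe1 had 0.21 at 24 h and -0.13 at 72 h. Neither was 1.5-fold apart in T cells.

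Taking the 10 genes as a group, 1 was at least 2-fold higher in treated T cells at 24 h (Hspb1), against 0.329% of all measured genes, and 0 were at least 2-fold lower, against 0.0118%. At 1.5-fold, 3 were higher (Hspb1, Hspb8 and Hspa1a), against 3.28%, and 0 lower, against 0.229%. By the Agilent ratio 2 were at least 2-fold higher (Hspb1 and Hspa1a), against 0.865%, and the same 3 were at least 1.5-fold higher, against 5.08%. With an offset of 0 there were 2 past 2-fold, against 0.676%. The median of the 10 was 0.22, where that of all genes was 0.02. All 10 were above 0, but 8 by the Agilent ratio, and 4 were within the SD between probes. Over all measured genes, 54.8% were above 0.

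In T cells at 72 h, 0 of the 10 were at least 2-fold higher, against 0.227% of all genes, and 0 at least 2-fold lower, against 0.38%. At 1.5-fold 1 was higher (Hspb1), against 1.98%, and 0 lower, against 1.93%. The Agilent ratio put 1 past 2-fold (Hspa1a), against 0.711%, and 3 past 1.5-fold (Hspb1, Hspa1a and Hspa1b), against 4.11%. With an offset of 0 the count past 2-fold was 0, against 0.521%. The median was 0.24, where that of all genes was 0.01, and 8 of 10 were above 0, as were 51.1% of all genes.

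In stromal cells, 0 of the 10 were at least 2-fold higher, against 0.439%, and 0 at least 2-fold lower, against 0.118%. At 1.5-fold 1 was lower (Hsp90aa1), against 2.78%, and 0 higher, against 2.21%. The median was 0.09, where that of all genes was 0.02, and 6 of 10 were above 0, as were 53.4% of all genes. By the Agilent ratio 1 gene was past 1.5-fold higher (Hspa1a), against 4.49%, and 1 lower (Hsp90aa1), against 6.67%. Past 2-fold higher there were 0 by the Agilent ratio, against 0.948%, and 0 with an offset of 0, against 0.76%.

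The other genes of the pathway were read from 8 lists of 81 genes: heat shock factors, small heat shock proteins, HSP70 and HSP110 proteins, J-domain proteins, HSP90 partners, nucleotide exchange factors, the cytosolic chaperonin and mitochondrial proteases. Of these, 72 were measured in T cells at 24 h, 71 at 72 h and 69 in stromal cells. None was 2-fold apart on any array by either ratio. The medians were -0.01, -0.02 and -0.05.

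Bag3, the exchange factor that joins HSP70 to Hspb8, had the highest ratio of these genes at 24 h. It had a level of 11.63 in treated and 10.91 in untreated T cells at 24 h, which is 1.64-fold higher, and its second probe gave a log2 ratio of 0.36 where the brightest gave 0.71. At 72 h its log2 ratio was 0.17 and in stromal cells -0.03. Under the scalings tried, its 24 h ratio was above 0 in each, from 0.54 with the median over its probes to 1.24.

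Dnajb4, a cytosolic J-domain protein, was 1.51-fold higher in treated T cells at 24 h and 1.53-fold at 72 h, where its 3 measured probes ranged from 0.02 to 0.85. With Bag3 it made up the 2 of 72 genes (2.78%) past 1.5-fold higher at 24 h, against 3.28% of all measured genes. At 72 h it was the 1 such gene of 71 (1.41%), against 1.98%. By the Agilent ratio there was 1 at 24 h (Bag3), against 5.08%, and 2 at 72 h (Dnajb4 and Hsf4), against 4.11%. The 24 h ratio of Dnajb4, 0.59, was 0.58 and under 1.5-fold by the Agilent ratio, an offset of 0, plain subtraction and the median over probes. The lowest ratios in T cells were those of Fkbp5, an HSP90-bound immunophilin, at -0.36 at 24 h and of Dnajc6, the J-domain protein auxilin of clathrin uncoating, at -0.49 at 72 h.

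In stromal cells 3 of 69 listed genes (4.35%) were at least 1.5-fold lower, against 2.78% of all measured genes, and 0 higher, against 2.21%. By the Agilent ratio 2 were lower (Cdc37l1 and Yme1l1), against 6.67%, and 1 was higher, Htra2 at 0.59, against 4.49%. Hspa9, at -0.58 by that ratio, fell just short of 1.5-fold. Hspa9, the mitochondrial HSP70, had a level of 13.58 in treated and 14.20 in untreated stromal cells, which is 1.53-fold lower, and its probes gave log2 ratios of -0.62 and -0.50. Cdc37l1, a relative of the HSP90 kinase adaptor, was at -0.67 with probes up to -0.34, and Yme1l1, a protease of the mitochondrial inner membrane, at -0.63 with probes up to -0.11. Centring on all probes put Hspa9 at 0.50, Cdc37l1 at -0.12 and Yme1l1 at -0.07, where the median of all measured genes was 0.65. The highest was Htra2, a protease between the mitochondrial membranes, at 0.58, or 1.02 with centring on measured genes.

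Hsf1 itself had log2 ratios of 0.33, -0.07 and 0.05, with its probes from -0.15 to 0.33 at 24 h. Hsf2, a related factor, was at -0.24 and 0.02 in T cells and was not above background in both channels in stromal cells. The alphaB-crystallin gene Cryab, a further small heat shock protein, had ratios of 0.20, 0.36 and 0.45. The HSP110 genes Hspa4 (0.15, 0.25 and 0.00) and Hspa4l (0.11, 0.03 and 0.10), the J-domain gene Dnaja1 (-0.00, 0.10 and -0.40) and Stip1 (-0.18, -0.26 and 0.02), which links HSP70 to HSP90, were each under 1.5-fold. Hsp90ab1, the constitutive HSP90, was at 0.26, 0.40 and 0.19 by its brightest probe and -0.27, -0.23 and -0.26 by the other.

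**Figure D3:**
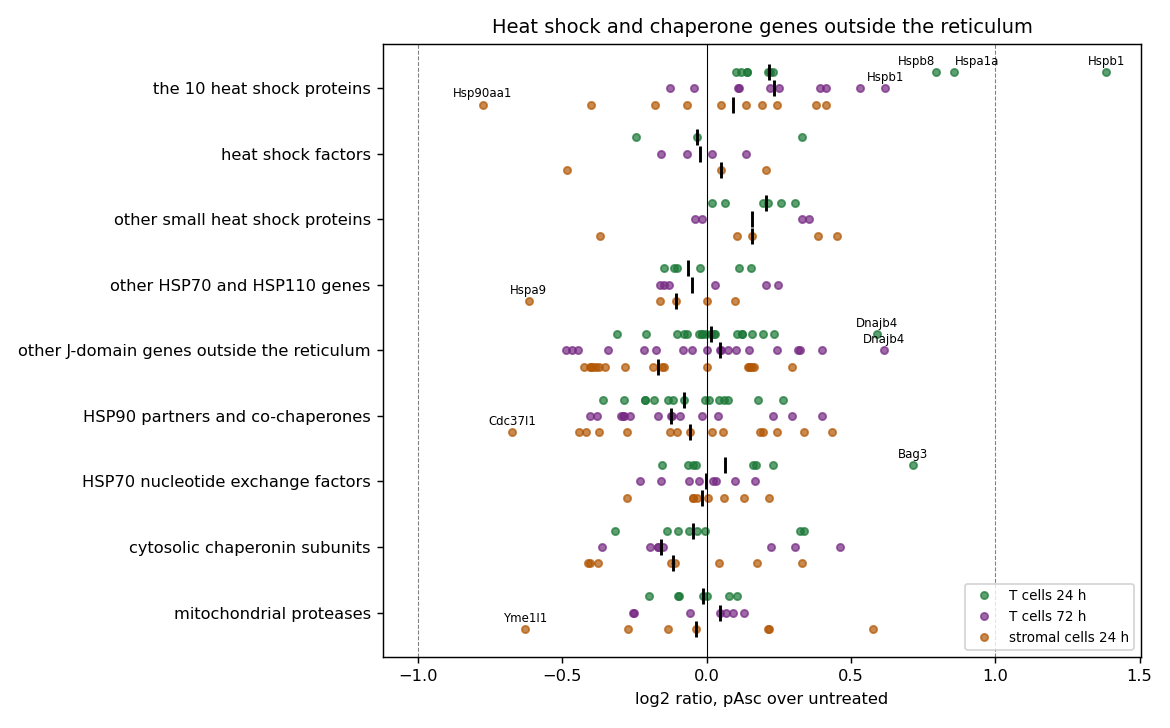
Log2 ratios of pAsc over untreated cells for the measured genes of each chaperone list, with T cells at 24 h, T cells at 72 h and stromal cells as colours and the median of each list as a black bar. Genes at least 1.5-fold apart are named, and dashed lines mark 2-fold. Only Hspb1 at 24 h passes 2-fold, and most genes lie within 0.5 of 0.

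The ratios of the small heat shock proteins were set between arrays. Stromal cells minus T cells at 24 h gave a difference of log2 ratios of at least 1 for 1 of the 10 genes, against 1.75% of 13770 genes measured on both, and likewise for 1 gene by the Agilent ratio, against 4.16%. This was Hspb1, at -1.005 (Agilent -1.02), just past the threshold, and it was -0.63 with centring on measured genes and -0.40 on all probes. Hsp90aa1 followed at -0.88 (Agilent -0.59) and Hspb8 at -0.66 (Agilent -0.69). For 72 h minus 24 h in T cells, 0 of the 10 differed by at least 1, against 0.563% of 15798 genes, or 1.77% by the Agilent ratio. Hspb1 was at -0.77 and Hspb8 at -0.38. These differences have no test, and the T cell arrays differ in culture age as well as in length of treatment.

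The levels of untreated cells show where each gene was held without treatment. Untreated stromal cells had 17.8 times as much Hspb1 as untreated T cells of day 14, 5.78 times as much Hspb8 and 2.52 times as much Hspa1b, and 5.81-fold less Hsp90aa1. These were the 4 of the 10 genes at least 2-fold apart, against 40.2% of 13873 genes. With the processed Cy3 signals less their 75th percentile 6 were, against 50.9%, with Hspa1a (-1.45) and Hspe1 (1.44) added. Untreated T cells of day 17 had 2.88 times as much Hspb1 and 2.51 times as much Hspb8 as those of day 14. These were 2 of the 10 genes past 2-fold, against 11.3% of 15904 genes, and with the processed Cy3 signals 3 were, with Hspa1a added, against 19.6%. Hspa1a was lower on day 17, by -0.74 on the log2 scale, or -1.68 with the processed Cy3 signals. Levels across arrays rest on a scaling that gives all arrays the same distribution of mean log2 brightness and leaves the ratios within an array unchanged.

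**Figure D4:**
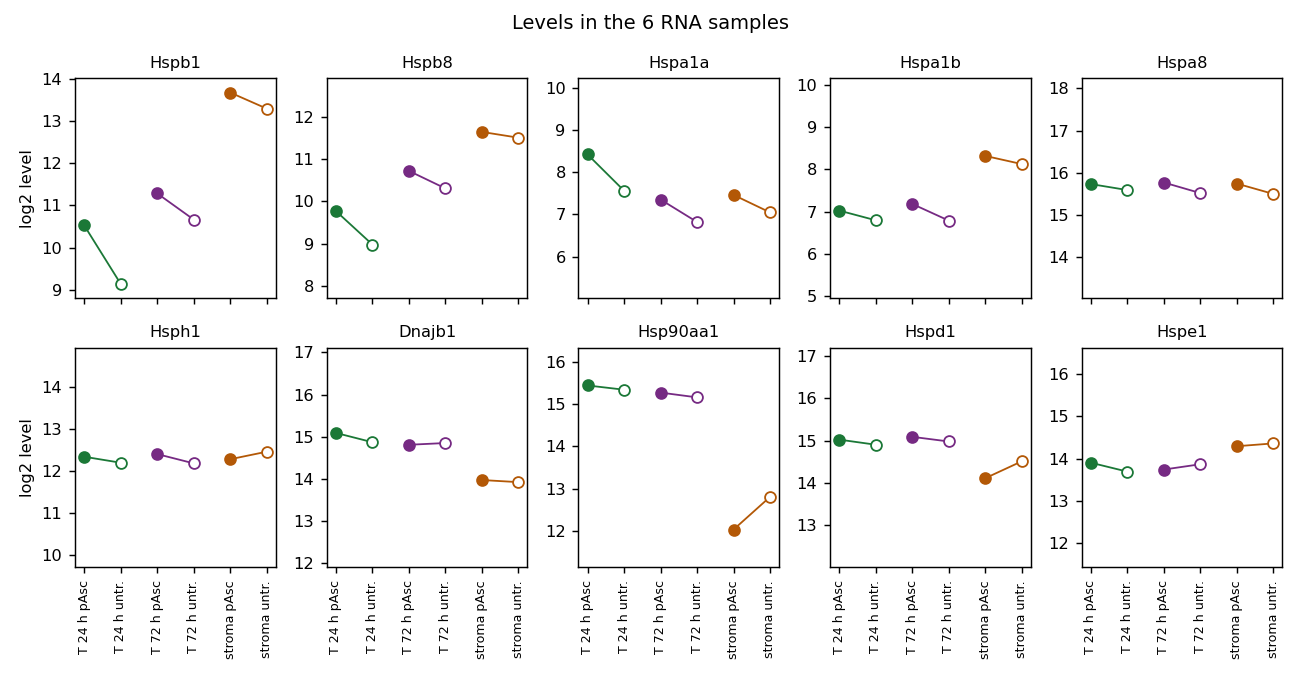
Log2 level of each heat shock gene in the 6 RNA samples, treated (filled) left of untreated (open), with a line joining the samples of 1 array. Every panel spans the same number of log2 units at its own height, and levels of different genes are not to be compared. Hspb1 and Hspb8 climb in steps over the arrays, with the stromal samples highest, while Hsp90aa1 is lowest in stromal cells.

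Markers of stromal cells moved with Hspb1 and Hspb8 in the T cell samples. Of 18 such markers, 16 were measured at 24 h, all 16 were above 0, and their median log2 ratio was 0.69, from 0.18 to 1.27. The summed level of all 18, measured or not, was 236903 in treated and 134031 in untreated T cells at 24 h. It was 506696 in treated and 331457 in untreated T cells at 72 h, and 667522 in treated and 536577 in untreated stromal cells. At 72 h 14 of 17 measured markers were above 0, with a median of 0.52, from -0.52 to 1.11. Dcn, the matrix proteoglycan decorin, was not above background in either channel at 24 h. In bulk RNA, more cells of a type and more RNA per cell cannot be told apart.

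At 24 h Hspb1 was above all 16 markers, Hspb8 above 9 and Hspa1a above 10, or 15 by the Agilent ratio. At 72 h Hspb1 was above 9 of 17. Untreated T cells of day 14 held 5.63% of the untreated stromal level of Hspb1 and those of day 17 held 16.2%. For Hspb8 these shares were 17.3% and 43.5%, and the median of the 18 markers was 23.4% and 65.7%. The markers were not uniform. They ran from 4.23% (Tagln) to 193% (Thbs1) on day 14, and from 18.6% (Tagln) to 192% (Thbs1) on day 17. Fn1 was also past the stromal level on day 17, at 111%. Lum and Dcn, which the median includes, were not measured in T cells at 24 h. On day 14 the share of the stromal level was 39.7% for Hspa1b, 62.9% for Hspe1 and 83.5% for Hsph1. It was 107% for Hspa8, 131% for Hspd1, 143% for Hspa1a, 193% for Dnajb1 and 581% for Hsp90aa1. The part of stromal RNA in the ratios of Hspb1, Hspb8 and Bag3 was not tested.

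**Figure D5:**
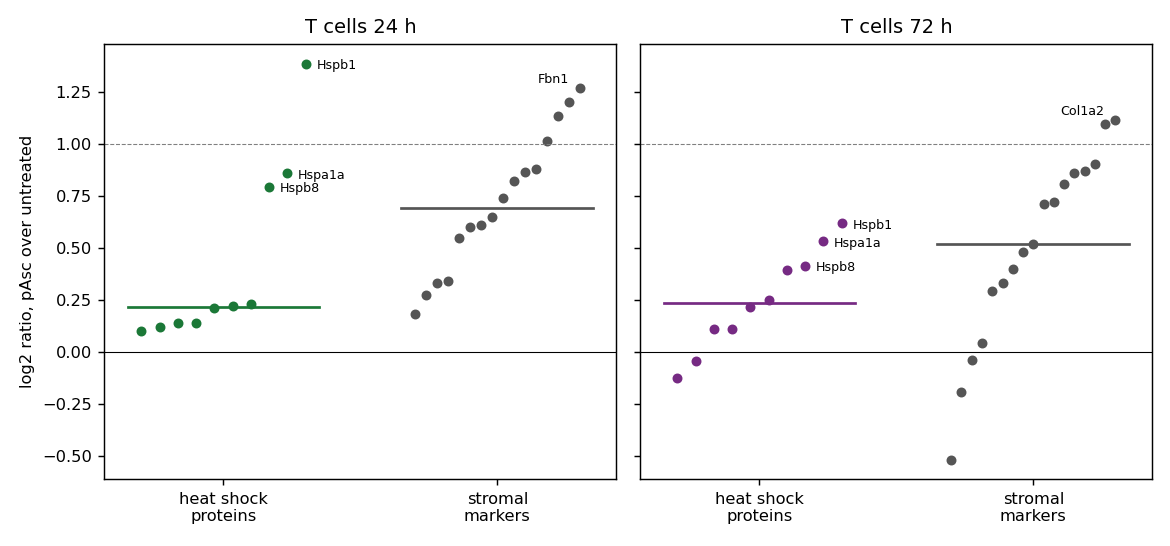
Log2 ratios of pAsc over untreated T cells at 24 h and 72 h for the 10 heat shock genes and for the measured stromal markers, sorted within each group, with medians as horizontal lines and 2-fold as a dashed line. At 24 h Hspb1 lies above the highest marker, Fbn1 at 1.27, while at 72 h Hspb1 lies among the markers.

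The cell labels were read against other markers. All 17 T lineage markers were measured on both T cell arrays. Their summed level was 227876 in treated and 227831 in untreated cells at 24 h. At 72 h it was 196877 in treated and 213470 in untreated cells, and 7 of the 17 had log2 ratios above 0. On that array 2 were at least 2-fold higher, Cd8a (1.31) and Cd8b1 (1.62), against 0.227% of all measured genes. At least 2-fold lower were 0, against 0.38%. In stromal cells 3 of the 17 were measured. The sums there, 2626 in treated and 2648 in untreated cells, are over all 17, so they include markers not above background. Of 6 osteoblast markers, 5 were measured in stromal cells and on both T cell arrays, and the bone sialoprotein gene Ibsp was not above background in any channel. All 5 adipocyte markers were measured on each array. Of 9 myeloid and mast cell markers, 7 were measured in T cells at 24 h, 6 at 72 h and 5 in stromal cells. Of 7 B lineage markers 6, 5 and 3 were measured. In T cells at 72 h 3 myeloid and mast cell markers and 2 B lineage markers were at least 2-fold lower. In either list 0 were at least 2-fold higher. Of all measured genes on that array, 0.38% were at least 2-fold lower and 0.227% higher.

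The genes most like Hspb1 over the 6 samples were found among 13650 genes by the root mean square difference of levels, each gene first centred on its own mean. Leaving out clone names, they were Obsl1 (0.22), Slc11a1 (0.27), Kif26b (0.27), Csrp2 (0.27) and Zfp469 (0.27), in log2 units. Untreated stromal cells held more of each than day 14 T cells without pAsc did, by 3.37 to 4.28 on the log2 scale, where Hspb1 was higher by 4.15. Their log2 ratios in T cells at 24 h ran from 0.55 to 1.08, below the 1.38 of Hspb1. These values come from the same 6 samples by which the genes were chosen, so the likeness follows from the choice.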

How the data were processed

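RNA of treated and untreated cells was hybridised to 3 two-colour Agilent arrays on 1 slide with 1 scan. Spot intensity values (mean signal and median local background of each channel) were deposited without normalization. Per the file headers they were made with Agilent Feature Extraction 10.5.1.1. The log10 ratio of Cy5 over Cy3 was also deposited, with its error. Per the file headers it follows background subtraction, detrending and dye normalization, and it was converted to log2 here. Depth has no meaning for arrays, and the number of arrays limits the precision.

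From the signals, normexp with an offset of 50 and loess with a span of 0.3 were run in limma 3.58.1 (R 4.3.3), with controls and flagged spots at weight 0. Spots of a probe were averaged, and the brightest probe stood for a gene. To count as measured, a gene needed a share of 0.5 or more of its spots flagged by the Agilent software as well above background in each dye. Aquantile scaling gave levels across arrays. Lists and counts used Python 3.11.15, numpy 2.4.6 and pandas 2.3.3. Positions of probes are on mm9, and RefSeq promoters are on GRCm38.p6. The background correction and loess were tried on simulated arrays with known changes, and the later steps were not.

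A single array stands behind each comparison. No test could be made, and genes were called by size at 2-fold, with 1.5-fold as an alternative. The other alternatives were the Agilent ratio, an offset of 0, plain subtraction, median centring on all probes or on measured genes, a running median over 501 genes, the median over probes, no filter on dim probes, and 2 scalings of the levels. The text names all 10 genes, a fixed set of other heat shock genes, the highest and lowest of these on each array, any past 2-fold, and the 5 genes most like Hspb1. Listed genes past 1.5-fold are named as well, chosen after their values were seen. The members and lists were chosen with earlier results of these data known.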

Additional observations from a re-analysis of the deposited data

Results flagged for a closer look

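Hsph1 had opposite directions in stromal cells and in T cells. Its log2 ratio was -0.18 in stromal cells after 24 h of pAsc and 0.22 in T cells after 72 h, each just past the SD between probes of a gene on its array (0.18). The difference between the arrays was not tested, the treatments differ in length, and the stromal value was -0.09 by the Agilent ratio. Centring turned the stromal value to 0.11 on measured genes and 0.76 on all probes. In T cells at 24 h, the array of the same length of treatment, the log2 ratio of 0.14 was within the SD between probes.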

How the results depend on the processing

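The counts of heat shock genes at least 2-fold apart are small and moved with the processing. For genes higher in T cells at 24 h the count of 1 became 3 at 1.5-fold, 2 each with the Agilent ratio, an offset of 0 and plain subtraction, and 5 with median centring on all probes. At 72 h the count of 0 became 1 at 1.5-fold, 1 with the Agilent ratio and 5 with centring on all probes. In stromal cells the count of 0 higher became 1 with plain subtraction and 5 with centring on all probes, and the count of 0 lower became 1 at 1.5-fold. The 1 gene that differed between stromal cells and T cells at 24 h fell out, leaving 0, with centring on all probes or on measured genes and with the running median. Centring on all probes moved the medians of the 10 genes to 0.98, 1.04 and 0.88 in T cells at 24 h, at 72 h and in stromal cells, where the medians of all genes were 0.42, 0.55 and 0.65. Centring on measured genes moved them to 0.55 and 0.49 in T cells at 24 h and 72 h. Over all genes at 72 h, 37 higher and 62 lower became 1675 and 12 with centring on all probes and 122 and 125 with centring on measured genes, and in stromal cells 63 and 17 became 2903 and 2 with centring on all probes. For levels of untreated cells, the processed Cy3 signals less their 75th percentile moved the count of genes at least 2-fold apart to 6, where it was 4, between stromal and T cells, and to 3, where it was 2, between days 17 and 14. Of 440 single values under the alternatives, 339 moved by less than the spread between probes, 101 moved by more and 0 called values changed sign. Most member ratios were short of 2-fold, so they could not enter that last count, and several of them did change sign. In stromal cells Hsp90aa1 went from -0.77 to 0.17 and Hspd1 from -0.40 to 0.76 with centring on all probes. Of those 101, 36 came from centring on all probes and 29 from centring on measured genes. The cause was not tested. No paired analysis was possible because each comparison has 1 array, and for the same reason no replicate could be left out. Dim probes limit Hspa1a and Hspa1b, and bright ones Hspa8, Hsp90aa1 in T cells and Hsp90ab1.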
